A study of Mus musculus with 22 samples.

Results

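Slc1a2, Slc1a3, Kcnj10, Aqp4, Gja1, Gjb6, Glul, Aldh1l1 and Slc4a4, the genes with which a resting astrocyte clears transmitter, moves ions and water and couples to its neighbours, were followed in neurons and glia of the mouse hippocampus contralateral to a kainate injection (CLH). They were chosen as the rows of the count file whose Ensembl identifier carries one of these 9 symbols, and they are 9 of 53379 genes listed. All 9 passed the filter on low counts. The mice were adult male C57/BL6N animals, 8 weeks old on arrival and kept for 4 weeks before use. The kainate group received 70 nl of 20 mM kainate above the right hippocampus, and only animals that developed convulsive seizures, the status epilepticus model, were kept. The sham group received the same injection of saline. Left hippocampi were taken at 24 h from 8 mice per treatment and combined into 3 pools of 2 or 4 mice, so that a library is a pool and not an animal. Nuclei of each pool were sorted by NeuN, a nuclear protein of most mature neurons encoded by Rbfox3, into a positive fraction (NeuN+, neurons) and a negative fraction (NeuN-, glia). This gave 3 libraries of kainate neurons, 3 of sham neurons, 3 of kainate glia and 2 of sham glia, since the preparation of sham glia 2 failed. NeuN- nuclei hold astrocytes together with every other cell that lacks NeuN, and no astrocyte marker was used in the sort. In such bulk libraries, fewer nuclei of a cell type and less RNA per nucleus cannot be told apart.

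Astrocytes take up synaptic glutamate through GLT-1 (Slc1a2) and GLAST (Slc1a3) and turn it into glutamine with glutamine synthetase (Glul). They buffer extracellular potassium through Kir4.1 (Kcnj10), pass water at their endfeet through aquaporin-4 (Aqp4) and regulate pH with the sodium bicarbonate cotransporter NBCe1 (Slc4a4). Connexin 43 (Gja1) and connexin 30 (Gjb6) form the gap junctions of the astrocyte network, and Aldh1l1, an enzyme of folate metabolism, is a general astrocyte marker. These functions are often studied in epilepsy, since potassium and glutamate outside the cell set how readily neurons fire. Slc1a2 and Slc4a4 are also known to be transcribed in some neurons.

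RefSeq start sites (GRCm38.p6) were listed for 8 of the 9 genes, 7 of them with 1 site and Slc4a4 with 2. The 250 bases before the start are shown for 4 sites, as examples of a low and a high CG content and of the motifs found. Slc4a4 and Slc1a2 had the largest and the smallest number of CG pairs among the 9 sites. In both, capitals mark CG, of which there were 44 before the first Slc4a4 start at chr5:88887010-88887259 (plus strand) and 1 before the Slc1a2 start at chr2:102706188-102706437 (plus strand). Before the Gja1 start at chr10:56377050-56377299 (plus strand), capitals mark TGANTCA, the letters that AP-1 factors are known to bind. Before the Slc1a3 start at chr15:8710808-8711057 (minus strand), capitals mark TTCNNNGAA, known from STAT factors, and TATAAA. All are written from 5′ to 3′ on the strand of the gene.
Slc4a4: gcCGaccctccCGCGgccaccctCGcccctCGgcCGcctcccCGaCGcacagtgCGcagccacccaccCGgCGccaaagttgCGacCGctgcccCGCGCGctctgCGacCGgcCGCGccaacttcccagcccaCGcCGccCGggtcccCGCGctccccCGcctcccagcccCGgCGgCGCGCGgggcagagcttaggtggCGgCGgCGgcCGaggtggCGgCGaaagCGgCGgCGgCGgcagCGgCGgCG
Slc1a2: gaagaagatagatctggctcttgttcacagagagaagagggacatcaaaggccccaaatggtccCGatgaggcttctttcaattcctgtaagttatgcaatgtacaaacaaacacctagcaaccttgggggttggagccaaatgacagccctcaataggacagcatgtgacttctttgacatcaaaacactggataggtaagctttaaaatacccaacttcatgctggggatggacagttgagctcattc
Gja1: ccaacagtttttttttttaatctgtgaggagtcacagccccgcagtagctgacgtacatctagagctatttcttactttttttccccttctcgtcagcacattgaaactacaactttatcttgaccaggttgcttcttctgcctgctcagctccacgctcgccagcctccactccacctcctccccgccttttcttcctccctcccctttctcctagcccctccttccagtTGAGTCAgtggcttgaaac
Slc1a3: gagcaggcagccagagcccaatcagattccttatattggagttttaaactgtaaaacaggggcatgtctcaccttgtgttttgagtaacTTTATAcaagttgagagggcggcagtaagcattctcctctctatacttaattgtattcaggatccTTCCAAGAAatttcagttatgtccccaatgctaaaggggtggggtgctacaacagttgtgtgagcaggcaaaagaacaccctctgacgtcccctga

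Both strands were searched, and no 2 of the marked matches overlapped. Of 32851 RefSeq windows of the same 250 bases, 0.539% held 44 or more CG pairs, and the median window held 6. The second Slc4a4 site had 3 CG pairs, and the other genes had 2 (Slc1a3), 5 (Gjb6), 6 (Gja1), 7 (Aldh1l1), 15 (Glul) and 17 (Kcnj10). TGANTCA occurred in 6.75% of all windows and among the 9 sites in that of Gja1 alone. TTCNNNGAA occurred in 7.02% and TATAAA in 12.4% of all windows, and each was found at Slc1a3 alone, the latter on the opposite strand and so read in the complement. The letters CCAAT occurred in 33.8% of all windows and were found before Slc1a3, Kcnj10, Glul, Aldh1l1 and the second Slc4a4 start. These matches describe the letters and were not tested for binding. The Slc1a2 and Aldh1l1 sites and both Slc4a4 sites lie inside the gene as GENCODE draws it.

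The libraries held 12058875 to 45428465 counts in genes. Levels are given as CPM, the count of a gene scaled to the library total with TMM factors. Rbfox3 reached 171 to 278 CPM in neurons and 23.8 to 49.2 CPM in glia, so the fractions matched their labels. The study's libraries were sequenced in separate runs on different instruments. The run of each library was not given in the sources used here, so runs were not fitted and their part in the replicate differences was not tested. Replicates differed strongly within a cell type. Summed over 5 oligodendrocyte markers, kainate glia 1 and sham glia 1 held 25860 and 36810 CPM, against 11070 in kainate glia 2, 4631 in kainate glia 3 and 8319 in sham glia 3. The 9 genes followed the same order: all 9 lay above their group mean in both glia libraries of replicate 1, and none did in kainate glia 3 or sham glia 3. For kainate glia 2 and sham glia 1 only 0.05 ng of RNA was at hand and 15 PCR cycles were run, while 1 ng and 10 cycles were used for the remaining 9.

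**Figure D1:**
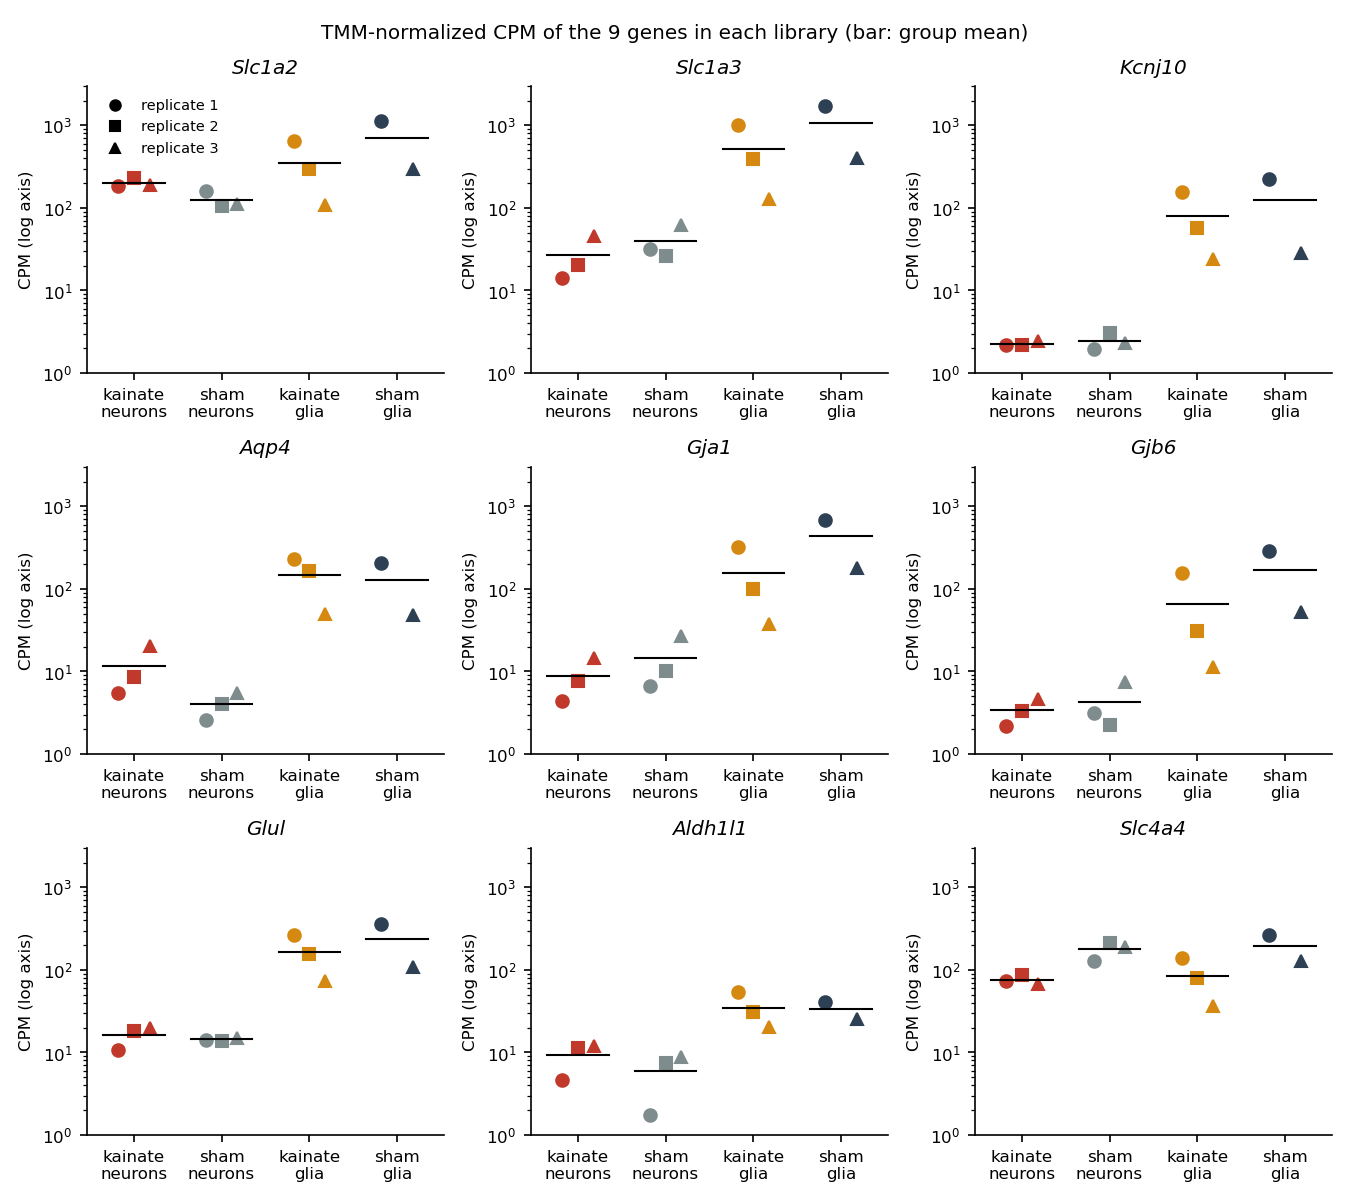
Each panel plots the normalized CPM of one gene on a log axis for the 11 libraries, with the symbol giving the replicate number and the line the group mean. Slc1a2 and Slc4a4 lie at 67.6 CPM or higher in neurons, the other genes lie at 61.6 CPM or lower there, and in glia the circles of replicate 1 lie above the triangles of replicate 3 for every gene.

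The comparison of NeuN+ with NeuN- nuclei asked how far the 9 genes belong to the glial fraction. 8 of 9 genes were lower in neurons over both treatments at FDR below 0.25, the study's threshold, where 20.4% of all genes tested were called lower, and the same 8 passed an FDR below 0.05, where 7.42% were. The median log2 difference of the 9 genes was -4.32, against -0.47 over all genes. Kcnj10 differed most, by -5.40 ± 0.58 (SE, log2) with an edgeR FDR of 3.6e-05. Gjb6 (-4.79 ± 0.68), Gja1 (-4.51 ± 0.63), Slc1a3 (-4.50 ± 0.59) and Aqp4 (-4.32 ± 0.52) followed, then Glul (-3.67 ± 0.40) and Aldh1l1 (-2.19 ± 0.42). Slc1a2 was 3.16-fold lower in neurons (log2 difference -1.66 ± 0.43, FDR 0.016), a smaller step than for the other glutamate transporter, Slc1a3, at 22.6-fold. Slc4a4 did not pass the test: its log2 difference was -0.15 ± 0.34 (FDR 0.77, 95% interval -0.88 to 0.58). All neuron libraries lay below all glia libraries for 7 genes, as they did for 6.31% of all genes, and the groups overlapped for Slc1a2 and Slc4a4. The fit above ignores that both fractions come from the same pools. With the pool as a block the same 8 genes were called, where 14173 of 40714 genes were called lower. Kcnj10 stood at -4.92 ± 0.53 there, Gjb6 at -4.00 ± 0.72, Slc1a2 at -1.29 ± 0.35 and Slc4a4 at -0.09 ± 0.29.

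Within the pools, the sort separated the genes to very different degrees. In pool 1 of either treatment, the median of the 9 genes was -5.34 (kainate) and -5.75 (sham) on the log2 scale between NeuN+ and NeuN- nuclei. It was -3.18 in kainate pool 2, -2.73 in sham pool 3 and -1.29 in kainate pool 3. Slc1a2 was higher in the NeuN+ library in kainate pool 3 (0.81) and lower in the other 4 pools (-2.81 to -0.39). Slc4a4 was lower in NeuN+ in both pools numbered 1 (-0.90 and -1.02) and higher in the other 3 (0.11 to 0.88). Oligodendrocyte markers moved the same way, from a median of -7.38 in sham pool 1 to -3.54 in kainate pool 3, and what part the purity of the sort had was not tested. Without sham glia 1, the Slc1a2 difference was -1.01 (FDR 0.081) and that of Kcnj10 -4.31. Without kainate glia 3, Slc4a4 passed the test at -0.50 (FDR 0.21).

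**Figure D2:**
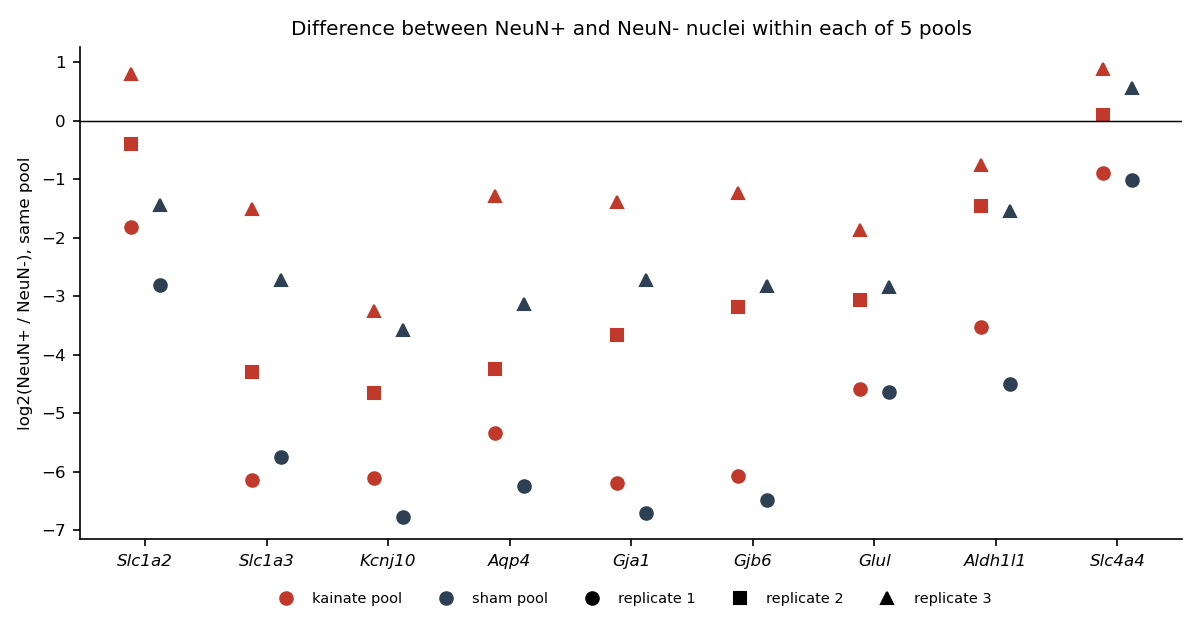
The plot gives, for each gene, the log2 difference between the NeuN+ and the NeuN- library of one pool, with kainate pools in red, sham pools in dark blue and the replicate number as the symbol. Pools numbered 1 lie lowest for every gene, kainate pool 3 lies highest, and Slc4a4 has values on both sides of 0.

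Read per kilobase of exon, which allows levels of different genes to be compared, Slc1a3 was the most abundant of the 9 genes in 4 of 5 glia libraries and Glul in the fifth, kainate glia 3. In sham glia the mean levels were 124 ± 108 CPM per kb for Slc1a3, 70.4 ± 53.1 for Glul, 64.2 ± 62.7 for Gjb6, 54.1 ± 44.2 for Slc1a2, 42.5 ± 35.5 for Gja1, 23.2 ± 25.3 for Kcnj10, 20.4 ± 17.8 for Aqp4, 18.01 ± 8.73 for Slc4a4 and 7.39 ± 2.42 for Aldh1l1 (SD, n = 2). Neighbours in that order differed by less than the larger of their SDs, except Slc4a4 and Aldh1l1. The order in kainate glia began with Slc1a3 (60.1 ± 53.1 CPM per kb) and Glul (49.1 ± 28.6), which again lay within their SDs, and Gjb6 and Gja1 stood at 24.5 ± 29.0 and 15.1 ± 14.8 (SD, n = 3). In neurons, Slc1a2 and Slc4a4 took the first 2 places in all 6 libraries and Kcnj10 the last. Slc1a2 ranked first in the 3 kainate neuron libraries and in sham neurons 1, and Slc4a4 ranked first in sham neurons 2 and 3. Sham neurons held 16.4 ± 3.95 CPM per kb of Slc4a4 and 9.50 ± 2.33 of Slc1a2, and kainate neurons held 7.03 ± 0.88 of Slc4a4 and 15.3 ± 1.76 of Slc1a2 (SD, n = 3). Both gaps exceeded the SDs, and the order was turned round. Slc1a3 and Glul came next in either group and lay within their SDs of each other.

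The comparison of kainate with sham asked whether these genes had shifted in the uninjected hippocampus 24 h after status epilepticus. None of the 9 genes was called in neurons, where 0.165% of all genes were, and none in glia, where 0.101% were. DESeq2's Wald test called none in either cell type as well. At an unadjusted p below 0.05, 2 genes in neurons (Aqp4 and Slc4a4) and 1 in glia (Slc4a4) passed in edgeR, where 2.09% and 2.05% of all genes did. Kainate and sham libraries with the same number deviated together from their group means in all 5 pairs, though only weakly in neuron pair 2 (correlation 0.161). The 2 glia pairs are not independent, since the 2 sham glia libraries deviate from their mean by equal and opposite amounts. The number was therefore also fitted as a block, a choice made from these same data and stated by no label. With that block, 6 genes were called in neurons. Aqp4, Slc1a2 and Aldh1l1 were upregulated, where 3.19% of all genes were called higher, and Slc4a4, Slc1a3 and Gja1 were downregulated, where 1.9% were called lower. In glia 5 genes were downregulated with the block (Gja1, Gjb6, Slc4a4, Slc1a3 and Slc1a2), where 2.86% of all genes were called lower, and none was upregulated. The median log2 difference in glia was -1.01 without and -1.12 with the block, against 0.02 and 0.11 over all genes. In neurons it was -0.11 and -0.12, against -0.01 and -0.001. The block leaves 3 residual degrees of freedom, beside 48.03 prior degrees of freedom that edgeR drew from the spread of all genes. Its small SEs thus rest mostly on the spread of other genes. The glia contrast with the block rests on replicates 1 and 3 only, since kainate glia 2 has no sham partner. Without the block, the glia differences turned on sham glia 1: with sham glia 3 as the only sham library, they were 0.26 for Slc1a2, 0.36 for Slc1a3, 1.51 for Kcnj10, 0.33 for Gjb6 and 0.61 for Glul, and that of Gja1 was -0.17. Without both low-input libraries, where sham glia 3 is again the only sham library, Gja1 stood at 0.0629. With replicates 2 and 3 alone, kainate glia 2 and 3 were set against sham glia 3, a single library assumed to vary like the other groups. That fit gave -1.35 for Gja1 and -1.33 for Gjb6, both past the threshold, where 58 of 45056 genes were called lower.

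**Figure D3:**
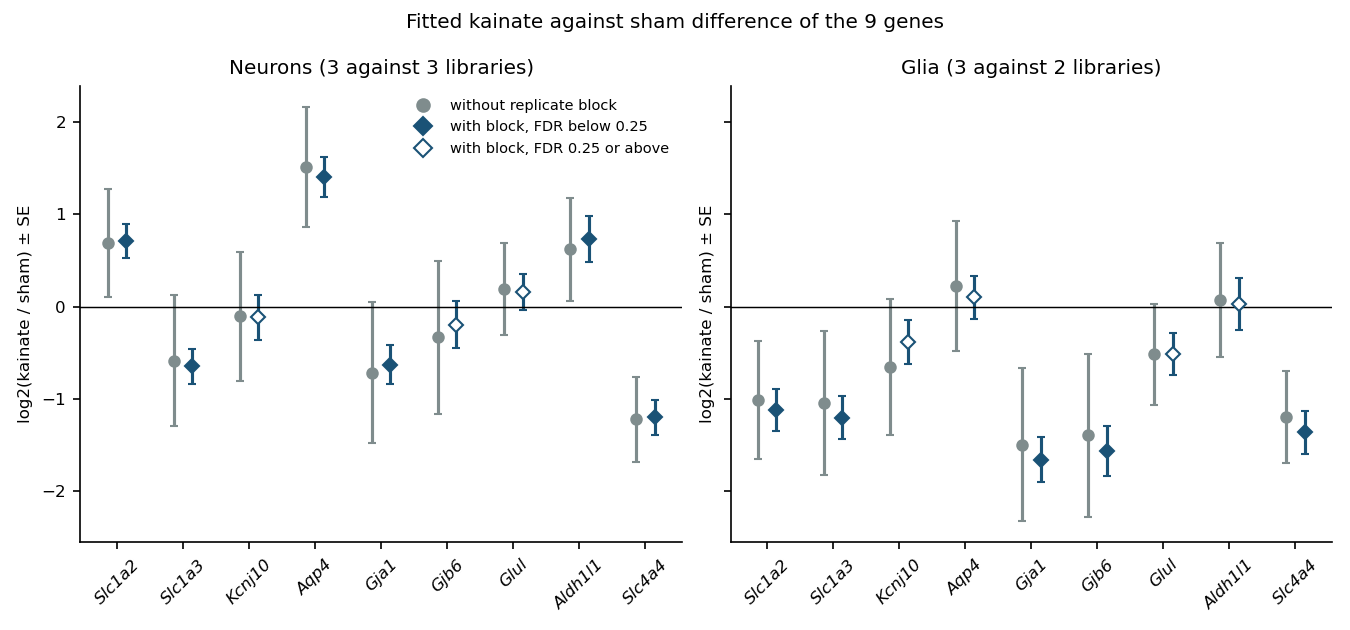
Points give the fitted log2 difference between kainate and sham libraries with its SE, in neurons and in glia, without the replicate block (grey circles) and with it (diamonds, filled at FDR below 0.25). The 2 fits give similar differences, and the SEs are 0.19 to 0.28 with the block against 0.46 to 0.88 without it.

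Of the glutamate genes, Slc1a2 had a positive difference in neurons and a negative one in glia, and the latter turned to 0.26 without sham glia 1. In neurons it stood at 184, 227 and 192 CPM in the kainate libraries and at 160, 104 and 110 CPM in the sham libraries. Every kainate value lay above every sham value, a separation in either direction that 7.86% of all genes showed in neurons. The log2 difference was 0.69 ± 0.58 (FDR 1) without and 0.71 ± 0.19 (FDR 0.018) with the block. In glia, kainate libraries 1, 2 and 3 held 649, 298 and 110 CPM and sham libraries 1 and 3 held 1121 and 299 CPM, so the groups overlapped, with the kainate library lower in both numbered pairs (-0.79 and -1.45 on the log2 scale). The fitted difference was -1.01 ± 0.64 (FDR 1) and with the block -1.12 ± 0.23 (FDR 0.0012). The gene (ENSMUSG00000005089) lies on chromosome 2 from 102658659 to 102790784 in mm10 and shares 189 exonic bases with Gm13872 on the other strand, whose total of 1598 counts compares with 71780 for Slc1a2. Reads of the 2 strands cannot be told apart in these libraries.

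Slc1a3 was lower after kainate in all 5 numbered pairs. Neurons held 14.3, 20.1 and 45.4 CPM with kainate and 31.6, 26.5 and 61.6 CPM with sham, which gave pair differences of -1.14, -0.40 and -0.44. Glia held 1013, 396 and 129 CPM with kainate and 1707 and 408 CPM with sham, with pair differences of -0.75 and -1.66. The groups overlapped in both cell types, and the larger SD of each pair of groups exceeded the difference of their means. With the block the log2 differences were -0.65 ± 0.19 (FDR 0.050) in neurons and -1.21 ± 0.23 (FDR 0.00047) in glia, and without it the FDR was 1 in both. The unblocked difference in neurons was -0.59 ± 0.71, -0.13 without sham neurons 3 and -1.21 without kainate neurons 3. Leaving out kainate neurons 1 gave -0.29. Slc1a3 (ENSMUSG00000005360) lies on chromosome 15 from 8634124 to 8710764.

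Glul differed less. Its kainate and sham values were 10.8, 18.4 and 20 against 14.3, 13.7 and 15.2 CPM in neurons, and 263, 154 and 73.2 against 359 and 109 CPM in glia. The groups overlapped in both cell types and edgeR called it neither without nor with the block. The log2 difference in glia was -0.52 ± 0.55 (95% interval -1.69 to 0.66), and with the block it was -0.51 ± 0.23 (FDR 0.38). DESeq2 with the block called it in glia (-0.59). Glul (ENSMUSG00000026473, chromosome 1 from 153899944 to 153909723) shares 116 exonic bases with Teddm2 on the other strand. Its processed copy Glns-ps1, with 1889 counts in all against 21620 for Glul, could have taken or given reads.

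Kcnj10 was low in neurons, at 2.20, 2.19 and 2.43 CPM with kainate and 1.95, 3.04 and 2.32 CPM with sham. Counts behind these values were 29 to 106 per library. In glia it stood at 158, 57.5 and 23.9 CPM with kainate and 222 and 28.6 CPM with sham. The groups overlapped, and replicates 1 and 3 of either treatment lay farther apart than the kainate and sham libraries of one number. Its log2 difference in glia was -0.65 ± 0.73 (95% interval -2.23 to 0.92) and -0.38 ± 0.24 (FDR 0.70) with the block, and the channel passed no test in either cell type. Kcnj10 (ENSMUSG00000044708) lies on chromosome 1 from 172341210 to 172374085.

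Aqp4 had the largest positive difference of the 9 genes in neurons. Neurons held 5.55, 8.61 and 20.4 CPM with kainate and 2.62, 3.99 and 5.45 CPM with sham. Every kainate value lay above every sham value, though kainate neurons 1 and sham neurons 3 nearly met, and the kainate library was higher in all 3 pairs (1.06, 1.09 and 1.89 on the log2 scale). The difference was 1.51 ± 0.65 (FDR 1), or 0.81 without kainate neurons 3, and with the block 1.40 ± 0.21 (FDR 5.7e-06). Glia held 228, 165 and 50.0 CPM with kainate against 205 and 48.3 CPM with sham. These overlapped, the pair differences were 0.15 and 0.05, and the blocked difference was 0.10 ± 0.23 (FDR 1.00). Aqp4 (ENSMUSG00000024411) lies on chromosome 18 from 15389496 to 15410982.

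The connexins showed the largest fitted differences in glia. Gja1 stood at 326, 99.9 and 37.9 CPM in kainate glia and at 693 and 178 CPM in sham glia, where kainate glia 1 alone exceeded the lower sham library. Pair differences were -1.09 and -2.23 on the log2 scale. The fitted difference was -1.50 ± 0.83 (FDR 1, 95% interval -3.27 to 0.28) and with the block -1.66 ± 0.24 (FDR 2.7e-06). In neurons Gja1 held 4.34, 7.77 and 14.4 CPM with kainate and 6.58, 10.0 and 26.9 CPM with sham, lower in all 3 pairs. The difference there was -0.71 ± 0.76 without the block, or -1.25 to 0.0914 on leaving out 1 library. With the block it was -0.63 ± 0.21 (FDR 0.11). Gjb6 followed in glia, at 154, 30.7 and 11.2 CPM with kainate and 290 and 53.2 CPM with sham. It differed by -1.39 ± 0.88 (FDR 1) and with the block by -1.57 ± 0.27 (FDR 8.5e-05). Its neuron values of 2.20, 3.31 and 4.68 CPM against 3.16, 2.27 and 7.45 CPM overlapped, and it passed no test there. Both connexins depended on sham glia 1 without the block, as given above. Pair 3, in which both glia libraries were made from 1 ng of RNA, gave -2.23 for Gja1 and -2.24 for Gjb6. Gja1 (ENSMUSG00000050953) lies on chromosome 10 from 56377330 to 56402513 and Gjb6 (ENSMUSG00000040055) on chromosome 14 from 57123303 to 57133611, and no annotated gene overlaps either.

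Slc4a4 was lower after kainate in both cell types and in all 5 numbered pairs. Neurons held 74.1, 86.3 and 67.6 CPM with kainate and 129, 212 and 190 CPM with sham, so that every kainate value lay below every sham value. Glia held 138, 80.1 and 36.6 CPM with kainate and 262 and 128 CPM with sham, where kainate glia 1 lay just above sham glia 3. The fitted differences were -1.22 ± 0.46 in neurons and -1.20 ± 0.50 in glia (FDR 1 in both, unadjusted p of 0.019 and 0.031 in edgeR). Leaving out 1 library gave -1.40 to -1.07 in neurons, but -0.56 without sham glia 1 and -1.84 without kainate glia 1 in glia. With the block they were -1.20 ± 0.19 (FDR 1.3e-05) and -1.36 ± 0.24 (FDR 8.2e-05). A fit of the neuron libraries alone also called it (-1.24, FDR 0.12), as did replicates 2 and 3 alone (-1.46, FDR 0.011). The gene (ENSMUSG00000060961) spans chromosome 5 from 88886818 to 89239653, and counts per gene do not say which of its start sites was used.

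Aldh1l1 held 4.62, 11.2 and 11.9 CPM in kainate neurons and 1.75, 7.49 and 8.74 CPM in sham neurons, and 53.8, 31.0 and 20.3 CPM in kainate glia against 41.1 and 25.6 CPM in sham glia. Groups overlapped in both cell types. In neurons the kainate library was the higher one in all 3 pairs (1.36, 0.57 and 0.45). The difference was 0.62 ± 0.56 (FDR 1), with a range of 0.19 to 0.99 on leaving out 1 library, the lowest without sham neurons 1, and with the block it was 0.73 ± 0.25 (FDR 0.12). In glia it was 0.03 ± 0.28 (FDR 1.00), with 1 pair higher and 1 lower. Aldh1l1 (ENSMUSG00000030088, chromosome 6 from 90486427 to 90600203) shares 499 exonic bases with Gm15756 on the other strand, which had 16 counts in all.

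A level relative to another gene of the same library does not move with the scaling between libraries. Aqp4 and Aldh1l1 were taken as such references after their values had been seen, because they differed least in glia. The ratios are given without a test, and a lower ratio shows unequal change of 2 genes only. Relative to Aqp4, 6 of 8 genes were lower in every kainate glia library than in every sham glia library (Slc1a2, Slc1a3, Gja1, Gjb6, Glul and Slc4a4), a separation that 3.18% of all genes showed, and none was higher in every one, as 0.666% were. Gja1 stood at 1.43, 0.605 and 0.758 of Aqp4 in kainate glia and at 3.38 and 3.68 in sham glia. For Slc1a2 the ratios were 2.85, 1.80 and 2.19 against 5.46 and 6.20, and for Slc1a3 4.45, 2.40 and 2.58 against 8.31 and 8.45. For these 3 genes the sham ratios lay close together although the 2 sham libraries held 205 and 48.3 CPM of Aqp4. The kainate ratios of the same 3 genes lay farther apart, as given above. For Gjb6 the sham ratios were 1.41 and 1.10 and for Glul 1.75 and 2.26. Sham ratios lay farther apart for Slc4a4 (1.27 and 2.65), Kcnj10 (1.08 and 0.591) and Aldh1l1 (0.200 and 0.531). Kcnj10 and Aldh1l1 overlapped. Relative to Aldh1l1, 2 of 8 genes (Gja1 and Slc4a4) were lower in every kainate glia library, as 4% of all genes were, and none was higher, as 3.38% were. In neurons 6 of 8 genes were lower relative to Aqp4, where 31.1% of all genes were, and Gja1 and Slc4a4 were lower relative to Aldh1l1, where 12% were. None was higher relative to Aqp4 (0.157% of all genes) or to Aldh1l1 (0.41%). The ratio of Slc1a2 to Slc4a4 in neurons was 2.48, 2.63 and 2.84 with kainate and 1.24, 0.492 and 0.580 with sham. In glia it was 4.70, 3.72 and 2.99 with kainate and 4.29 and 2.34 with sham, and these overlapped.

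**Figure D4:**
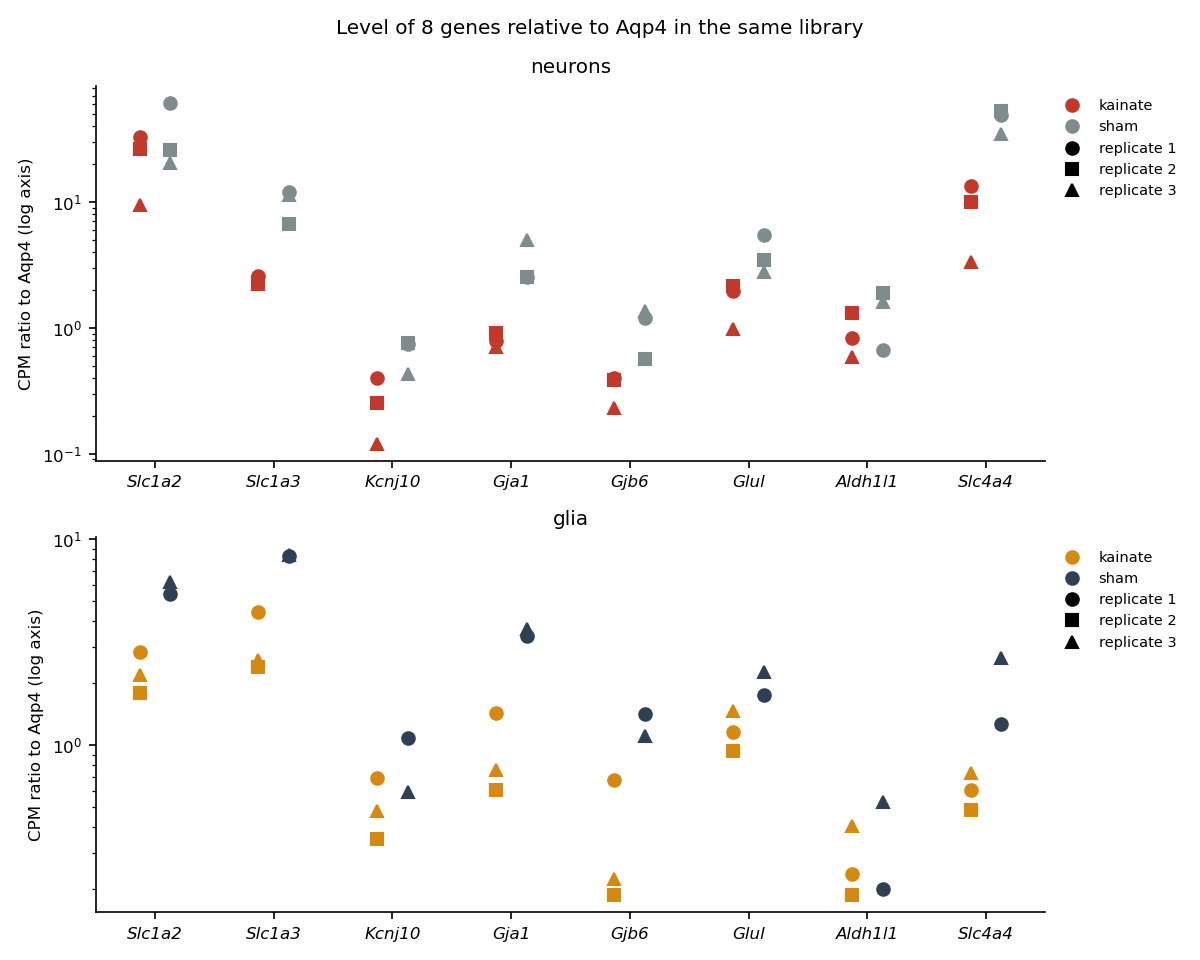
The CPM of 8 genes divided by that of Aqp4 in the same library is plotted on log axes for neurons and for glia, with one symbol per replicate number. In glia the kainate points of Slc1a2, Slc1a3, Gja1, Gjb6, Glul and Slc4a4 lie below both sham points, and those of Kcnj10 and Aldh1l1 overlap with them.

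Whether the kainate effect differed between neurons and glia was tested as an interaction. None of the 9 genes was called, where 0.00246% of all genes were, none had an unadjusted p below 0.05, and DESeq2's Wald test called none. Fitted values were above 0 (a higher kainate against sham difference in neurons than in glia) for 8 of 9 genes. Of these, Slc1a3, Kcnj10, Aqp4, Gja1, Gjb6 and Glul turned below 0 without sham glia 1. With the block 4 genes were called, where 1.94% of all genes were. These were Slc1a2 (1.83 ± 0.30, FDR 0.00010), Aqp4 (1.30 ± 0.31, FDR 0.023), Gjb6 (1.37 ± 0.37, FDR 0.056) and Gja1 (1.03 ± 0.32, FDR 0.14). Without the block Slc1a2 stood at 1.70 ± 0.86 (FDR 1), and at 0.42 without sham glia 1. For Slc4a4 the difference between the cell types was 0.16 ± 0.30 with the block and -0.02 ± 0.68 without it (95% interval -1.48 to 1.44).

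Other genes of these pathways were read from lists. None of 8 genes of glutamate, GABA and amino acid handling was called after kainate in either cell type without the block. With it, where 2.86% of all genes were called lower and 2.93% higher in glia, 6 were downregulated, among them the GABA transporter Slc6a11 (-1.55 ± 0.59 without the block, FDR 1.5e-06 with it) and the serine transporter Slc7a10 (-1.66 ± 0.82, FDR 6.0e-07 with it). Of 13 genes of ion and water homeostasis, 8 were downregulated and 1, the calcium channel Trpv4, was upregulated in glia with the block, and none without it. Among 9 other connexins, pannexins and scaffold genes, 3 were downregulated, Gjc3 of oligodendrocytes among them, and 1 was upregulated (Gjb1) with the block in glia. Of 8 genes of energy metabolism, 4 were lower and 3 higher there. The list medians in glia without the block were -0.72, -0.70, -0.16 and -0.49 in this order, against 0.02 over all genes.

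Markers of other cells moved beside the 9 genes in glia. With the block, 3 of 5 oligodendrocyte markers, all 3 precursor markers and 2 of 5 microglia markers were downregulated, with blocked list medians of -0.68, -0.79 and -0.54, and none of these markers was upregulated. None of 4 endothelial and 4 pericyte markers was called with or without the block. None of the markers was at 0 in a glia library. Of 10 further astrocyte identity genes, 7 were downregulated with the block (list median -1.01). In contrast, 10 of 13 reactive astrocyte genes were upregulated in glia with the block, where 2.93% of all genes were called higher, and 5 without it, where 0.0933% were: Timp1 (5.64 ± 0.89, FDR 0.076), Cd44 (3.72 ± 0.58, FDR 0.076), S1pr3 (3.61 ± 0.59, FDR 0.082), Serpina3n (4.28 ± 0.74, FDR 0.12) and Hspb1 (3.47 ± 0.70, FDR 0.23). A fit of the glia libraries alone called 0 of 39857 genes higher and 0 lower, so these 5 genes were not called there. The median pair difference of the 13 genes was 2.90 in pair 1, which holds the low-input sham glia 1. It was 1.56 in pair 3, where 11 genes were higher and 2 lower. Gfap, the intermediate filament of astrocytes, stood at 278 to 857 CPM in kainate glia and 87.9 to 232 CPM in sham glia. It differed by 1.86 ± 0.61 (FDR 1, with the block 2.1e-06). In neurons 8 reactive genes were upregulated with the block (3.19% of all genes) and 2 without it (0.157%), the filament gene Vim (2.89 ± 0.57, FDR 0.17) and Timp1 (3.31 ± 0.66, FDR 0.17). Of 6 neuron markers, 1 (Gad1) was higher in glia with the block, and all 6 were higher in kainate glia 3 than in sham glia 3 (median 0.29 on the log2 scale), while 4 of the 6 were lower in kainate glia 1 than in sham glia 1 (median -0.20). The summed neuron markers were 513 to 745 CPM in kainate glia and 465 to 647 CPM in sham glia. The part of cell composition in the differences of the 9 genes was not tested.

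**Figure D5:**
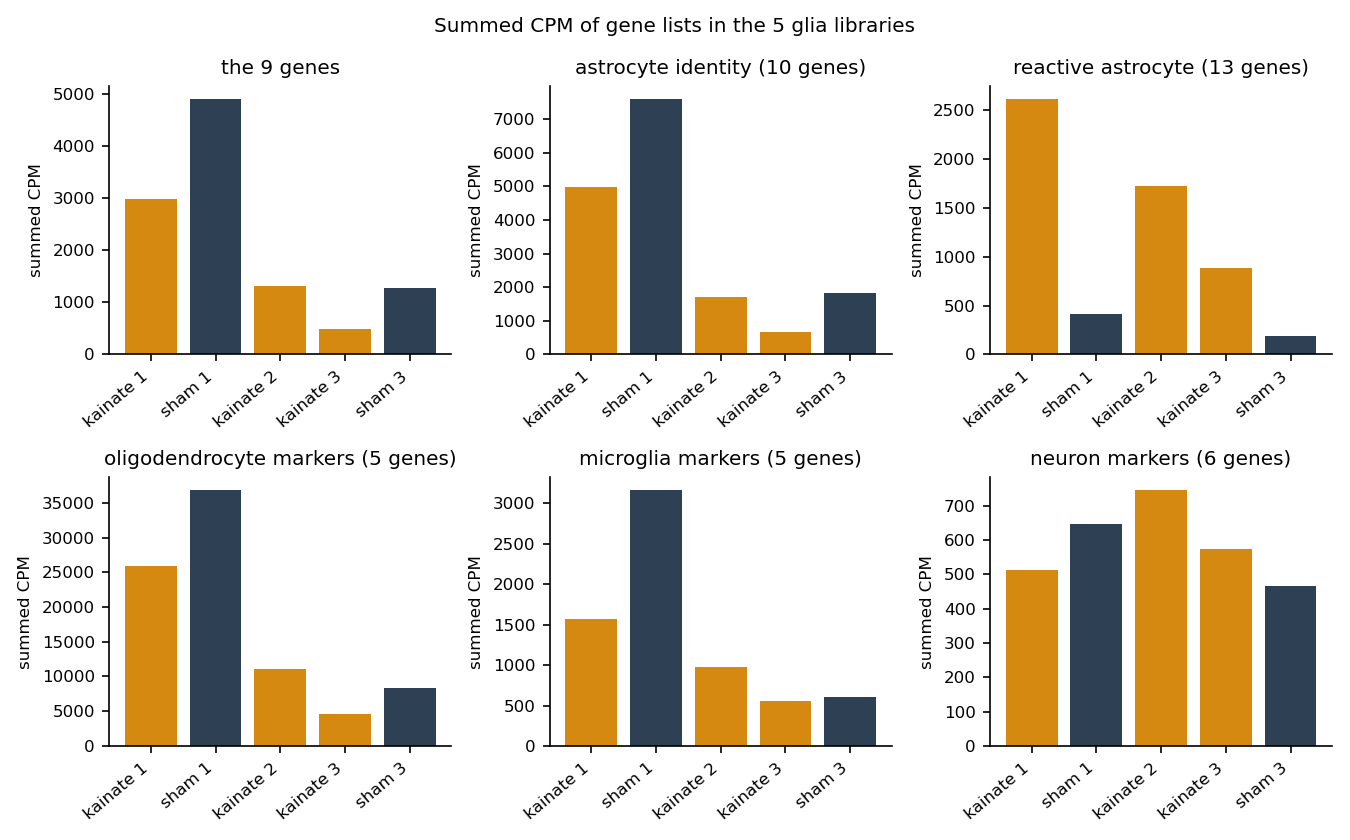
Bars give the CPM summed over each gene list in the 5 glia libraries, kainate in orange and sham in dark blue, ordered by replicate number. The 9 genes, the astrocyte identity genes and the oligodendrocyte and microglia markers are highest in sham glia 1 and lowest in kainate glia 3, while the reactive astrocyte sum is 885 to 2620 CPM in kainate glia against 186 and 410 CPM in sham glia.

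In neurons the 9 genes summed to 302 to 385 CPM with kainate and 351 to 428 CPM with sham, and the oligodendrocyte markers to 185 to 421 and 230 to 439 CPM, and both sums overlapped between the treatments. Sums that did not overlap were those of the reactive astrocyte genes (305 to 377 against 71.1 to 122 CPM), the 5 microglia markers (62.4 to 66.7 against 41.2 to 61.4 CPM, of which Csf1r was called higher and P2ry12 lower with the block) and the other connexin, pannexin and scaffold genes (136 to 169 against 169.6 to 219.5 CPM, of which 2 of 9 were called higher and 3 lower with the block). With the block, 3 of the 10 astrocyte identity genes were upregulated in neurons (Sox9, Gpc5 and Mt3), where 3.19% of all genes were called higher, and none was downregulated, where 1.9% were. Without the block none of the 10 was called.

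Genes nearest to the median profile of the 9 across all 11 libraries were Gm21984, Gramd3, Vcam1, Mlc1 and Fgfr2, with root mean square differences of 0.28 to 0.32 on the centred log2 scale among 11983 genes of at least 10 CPM on average. Mlc1 encodes a membrane protein of astrocyte endfeet. By the same measure Glul lay closest of the 9 genes to their common profile (0.36) and Slc1a2 (1.20) and Slc4a4 (1.87) lay farthest. The likeness of the 5 other genes was measured on the same libraries as the comparisons, so no test of them is given.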

How the data were processed

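The deposited values were raw counts per gene, which the authors made from SMART-Seq v4 mRNA libraries by trimming with Trim Galore 0.4.3, aligning to mm10 with Rsubread and counting with featureCounts on GENCODE M16, without strand. The 11 bisulfite samples were not used. The protocol label names right hippocampi where titles and design name left ones.

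Of the genes listed, 105 had no symbol and were removed, and filterByExpr (minimum count 10, total 15) kept 40714. TMM-scaled counts entered edgeR's quasi-likelihood model (glmQLFit, legacy=TRUE) of 4 group means over 11 libraries, with Benjamini-Hochberg adjustment over all genes and FDR below 0.25 as the threshold. The software was edgeR 4.0.16 and DESeq2 1.42.0, run with limma 3.58.1 under R 4.3.3. Log2 differences between single libraries used a prior count of 2. Exon lengths came from GENCODE M21 on the same build.

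After group means were removed, kainate and sham libraries of one number correlated across genes by 0.643, 0.161 and 0.491 in neurons and by 0.760 and 0.787 in glia, so the numbers were taken to pair the libraries, as a hint from the data. The NeuN+ and NeuN- libraries of a number come from 1 pool. Without a block, P-values measure the spread between pools. With the replicate block they measure the spread left after differences between the numbers are taken out. That spread was estimated with 3 residual and 48.03 prior degrees of freedom, the latter drawn from all genes.

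The 9 genes and the lists were chosen with earlier results of these data known. Named were the 9 genes, from each other list up to 3 called genes with the smallest p per comparison, Gfap, Vim, Rbfox3 and the 5 genes nearest to the median profile. Other list genes were named after their values were seen. Alternatives were other scaling, filters, thresholds, DESeq2, separate fits, the block, input as a covariate and leaving out libraries. Replicates 2 and 3 alone and DESeq2 with the block were added after the data were seen. Fits were run on simulated data. For the block, these data were made with a replicate difference shared by kainate and sham libraries, so they do not test the pairing. Both the number of pools and the count depth limit the precision.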

Additional observations from a re-analysis of the deposited data

How the results depend on the processing

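Of the counts of called genes, that for NeuN+ against NeuN- nuclei stayed within 1.5 times the reported 8 under every alternative. With the replicate block, 6 genes were called in neurons, 5 in glia and 4 for the difference between them, and with DESeq2 and the block 6, 6 and 5. Of 40714 genes, the last fit called 1520 higher and 1036 lower in neurons, 1362 and 2334 in glia and 970 and 346 for the difference. Without the block, a separate fit of the glia libraries called 0 of 39857 genes higher and 0 lower. No glia call without the block was thus repeated when the neuron libraries were left out of the fit. A separate fit called 1 gene in neurons (324 higher and 66 lower of 30259 genes), and replicates 2 and 3 alone called 2 in neurons (Aqp4 and Slc4a4; 637 higher and 389 lower of 45056) and 2 in glia, where sham glia 3 was the only sham library and 58 of 45056 genes were called lower. Leaving out 1 library gave 0 to 1 called genes in glia, the 1 being Slc4a4 without sham glia 3 (-1.63, FDR 0.24). That fit has the low-input sham glia 1 as its only sham glia library, and of 42640 genes it called 2359 higher and 453 lower, with a median of 0.76 over all genes. Directions that turned are given as log2 differences, and their cause was not tested. In glia, Aldh1l1 turned with DESeq2's size factors (-0.0217), with DESeq2 (-0.0213) and with DESeq2 and the block (-0.0496). Without both low-input libraries, which leaves sham glia 3 as the only sham glia library, glia gave Slc1a2 0.37, Slc1a3 0.52, Kcnj10 1.70, Gja1 0.0629, Gjb6 0.67 and Glul 0.65. With low input as a covariate Kcnj10 was 0.0030, and with replicates 2 and 3 alone Kcnj10 was 0.53 and Glul 0.0748. For neurons against glia, Slc4a4 was 0.0461 with the size factors and 0.0461 with DESeq2, 0.16 with the block and 0.23 with DESeq2 and the block. Without the low-input libraries the difference was -1.10 for Slc1a3, -1.80 for Kcnj10, -0.0442 for Aqp4, -0.78 for Gja1, -1.001 for Gjb6 and -0.46 for Glul, and Kcnj10 was -0.11 with the covariate and -0.82 with replicates 2 and 3. Slc4a4 between NeuN+ and NeuN- nuclei was 0.16 without the low-input libraries, 0.0306 with the covariate and 0.64 with replicates 2 and 3. Leaving out 1 library at a time turned directions in neurons for Kcnj10 (-0.24 to 0.0876), Gja1 (-1.25 to 0.0914) and Gjb6 (-0.64 to 0.34). In glia the ranges were -1.93 to 0.26 for Slc1a2, -2.13 to 0.36 for Slc1a3, -1.77 to 1.51 for Kcnj10, -0.48 to 1.64 for Aqp4, -3.17 to 0.33 for Gjb6, -1.17 to 0.61 for Glul and -0.48 to 0.48 for Aldh1l1. For neurons against glia they were -0.95 to 1.52 for Slc1a3, -1.62 to 1.60 for Kcnj10, -0.14 to 1.99 for Aqp4, -0.54 to 2.02 for Gja1, -0.66 to 2.79 for Gjb6, -0.43 to 1.33 for Glul and -0.66 to 0.55 for Slc4a4. Slc4a4 between the fractions ranged from -0.50 to 0.18. A sham glia group of 2 libraries limits all glia values, and counts of 29 to 106 for Kcnj10 limit its values in neurons.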

Other observations

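Related astrocyte genes also separated the 2 fractions. In NeuN+ against NeuN- nuclei, 7 of 8 genes of glutamate, GABA and amino acid handling were lower in neurons by edgeR's test, among them the glutamine transporter Slc38a3 (log2 difference -4.08 ± 0.51) and Slc7a10 (-4.53 ± 0.62), with a list median of -2.29. Of all genes tested, 20.4% were called lower and 16.8% higher. Of 13 genes of ion and water homeostasis, 8 were lower and 4 higher, and the adhesion protein gene Hepacam differed most (-5.55 ± 0.60). Among 9 other connexin, pannexin and scaffold genes, 6 were lower and 2 higher. The oligodendrocyte connexin genes Gjc3 (-6.24 ± 0.66) and Gjb1 (-5.86 ± 0.56) lay lower still than Gja1 (-4.51) and Gjb6 (-4.79). Energy metabolism genes were lower in 5 of 8 cases and higher in 1, and astrocyte identity genes in 8 of 10 and 1. The reactive astrocyte genes were lower in neurons in 12 of 13 cases, with Gfap at -2.90 ± 0.40. These counts ignore that both fractions come from the same pools. With the pool as a block, 8 of 8 glutamate, GABA and amino acid genes were lower. Higher in neurons were then 3 connexin, pannexin and scaffold genes and 3 energy metabolism genes, and the other counts stayed the same. That fit called 14173 of 40714 genes lower and 10140 higher.

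The kainate effect differed between neurons and glia for 7 of 10 astrocyte identity genes with the replicate block, and for none without it. In all 7 the kainate against sham difference was higher in neurons than in glia. Of all genes, 1.94% were called with the block in either direction. The list median was 1.16 with the block and 1.11 without it, against -0.09 and -0.03 over all genes.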
